A study of Macaca mulatta with 24 samples.

Results

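Signals of 10 genes of the CXC chemokine system were followed in the colon of rhesus macaques after total-body irradiation (TBI). The genes were CXCL9, CXCL10, CXCL11, CXCL12, CXCL13, CXCL14, CXCL16, CXCL17, CXCR4 and CXCR5, and their probes were found by gene symbol. All 10 had a probe on the array, of 16123 named genes in all, and together they had 17 probes. The filter on dim probes, which asks for a signal well above background on 2 or more of the 24 arrays, kept all 17 probes and so lost no gene.

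Each array held total RNA from a piece of colon of 1 animal. The animals were young adult males, sham-irradiated or given a single gamma-ray dose from a cobalt-60 source. There were 4 sham-irradiated controls (dose 0, labelled day 4), 4 animals on day 4 after 6.7 Gy, 4 on day 4 after 7.4 Gy, 4 on day 7 after 6.7 Gy, 4 on day 7 after 7.4 Gy, 2 on day 12 after 6.7 Gy and 2 on day 12 after 7.4 Gy. The same 4 controls served both doses and all days, and there was no control group for day 7 or day 12. The last day is 12 in the sample labels and differs in the treatment text of those labels, and day 12 is used here. The samples were whole gut tissue, so fewer cells of a type and less RNA per cell cannot be told apart. Of 8 listed colon epithelium markers, 6 were measured, and each was well above background in every group.

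Chemokines are small secreted proteins that steer leukocytes through receptors on their surface. CXCL9, CXCL10 and CXCL11 are induced by interferons, above all interferon gamma, and attract activated T and NK cells through CXCR3. CXCL12 is a homeostatic ligand made by stromal cells and binds CXCR4, CXCL13 guides CXCR5-bearing B cells into lymphoid follicles, and both systems organise gut lymphoid tissue. CXCL14, CXCL16 and CXCL17 are made by epithelia, among other cells. CXCL16 can stay anchored in the membrane and is bound by CXCR6.

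Values are log2 signals relative to the 75th percentile of the same array, and a change is a difference of group means on that scale. A call required a limma p below 0.05 after Benjamini-Hochberg adjustment and a change of 2-fold or more, read from the brightest probe of each gene. On single arrays, 66.6% to 84.8% of probes exceeded background clearly, the 75th percentile lay between 558 and 971 intensity units, and arrays of a group correlated across probes at 0.959 to 0.983. Labels name separate samples but no culture or cage, and p-values measure the spread between these animals and their arrays. Each slide carried 4 arrays, and the groups were spread unevenly over the 6 slides, the 4 positions on a slide and the 2 scan days. All controls lay at position 1. The 7.4-Gy day 4 arrays all lay at position 2, which held some 6.7-Gy day 4 arrays too.

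**Figure D1:**
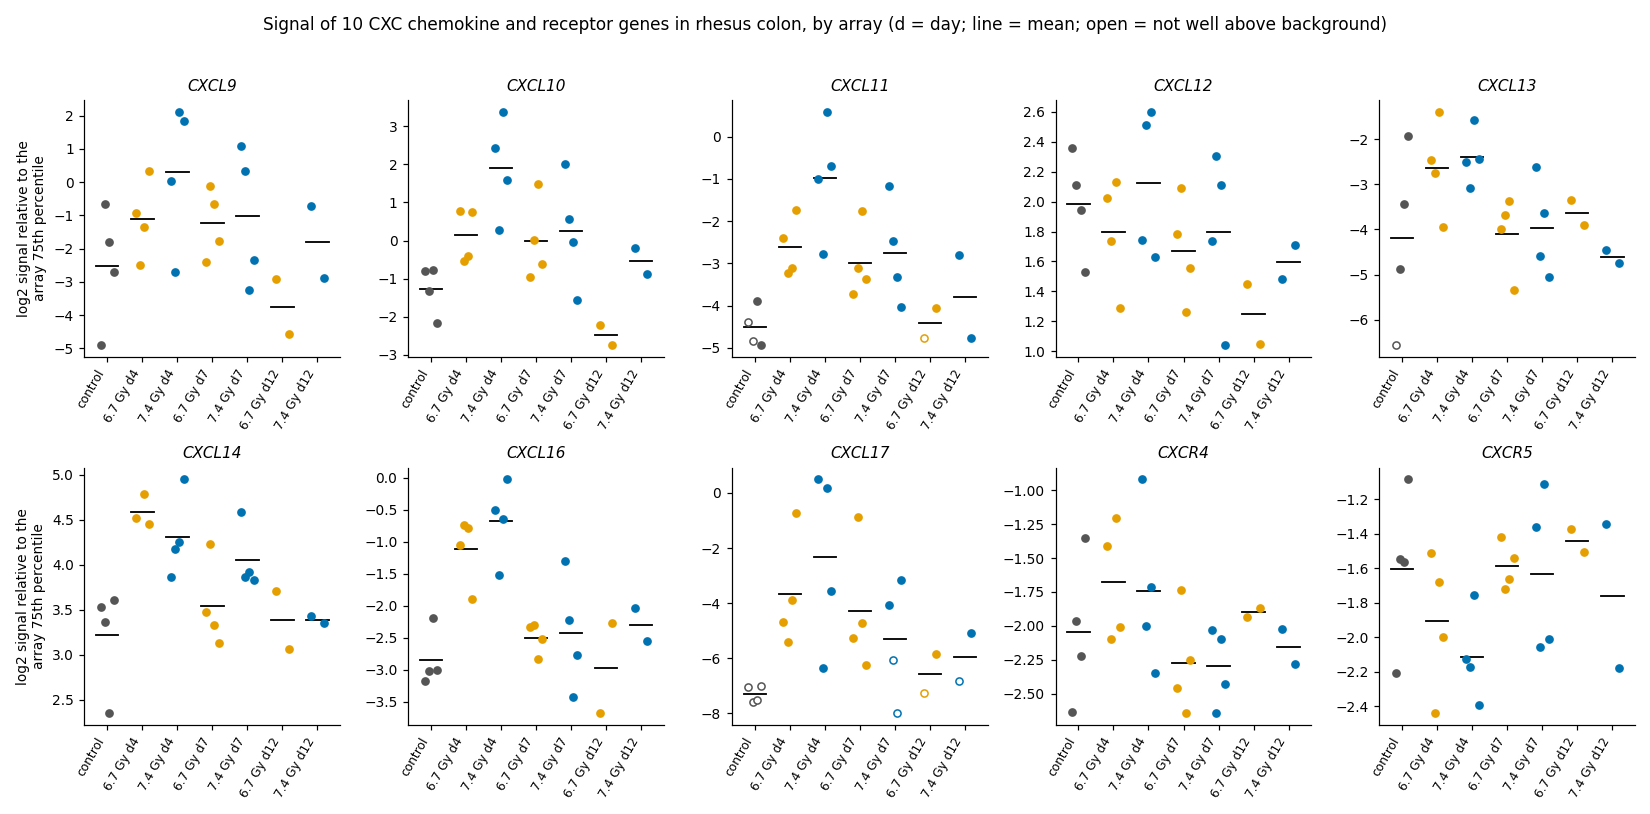
Log2 signal relative to the array 75th percentile (y axis) of the brightest probe of each gene in every array, by group (x axis, d = day; grey, control; orange, 6.7 Gy; blue, 7.4 Gy). Lines are group means, and open circles are arrays on which the probe was not well above background. The ligands CXCL9, CXCL10, CXCL11, CXCL12, CXCL13, CXCL16 and CXCL17 have their highest group mean on day 4 after 7.4 Gy, and CXCL14 on day 4 after 6.7 Gy. The irradiated groups of CXCR4 and CXCR5 overlap the controls.

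On day 4 after 7.4 Gy, 5 of the 10 genes rose and none fell. They were CXCL10, CXCL11, CXCL14, CXCL16 and CXCL17, against 4.14% of all 14758 named genes called higher and 8.05% called in either direction. The median change of the 10 genes was 1.99, and that of all named genes was -0.027. On day 4 after 6.7 Gy, 2 of the 10 rose, CXCL14 and CXCL16, against 2.24% of genes called higher and 4.12% called in either direction, and the median change was 1.41. At an unadjusted p under 0.05 the counts were 7 of the 10 after 7.4 Gy, against 35.8% of named genes, and 4 of the 10 after 6.7 Gy, against 27.6%. The arrays did not overlap the controls for 5 of the 10 genes at each dose, against 25.7% of named genes after 7.4 Gy and 17.5% after 6.7 Gy. At both doses these include CXCL17, which was not well above background on any control array. After 6.7 Gy they include CXCL14, which overlaps the controls if a spot left out as an outlier (2.45) is kept.

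CXCL10, an interferon-induced ligand, was well above background on every array. The control arrays read -0.81, -1.31, -0.77 and -2.16, and the 7.4-Gy day 4 arrays read 2.42, 0.27, 3.38 and 1.58. All 4 irradiated arrays were above all 4 controls. CXCL10 rose by 3.18 (SE 0.69, 95% interval 1.73 to 4.62, 9.04-fold, adjusted p = 0.00354). On day 4 after 6.7 Gy the arrays read 0.77, -0.55, -0.39 and 0.75, again above every control, but the difference of 1.41 was not called (interval -0.04 to 2.85, adjusted p = 0.204). The second CXCL10 probe gave 3.76 after 7.4 Gy (adjusted p = 0.00266) and 2.05 after 6.7 Gy (adjusted p = 0.101).

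CXCL11 was near the lower end of detection in the controls. Its control arrays read -4.39, -4.83, -3.89 and -4.94, and 2 of the 4 were well above background. The 7.4-Gy day 4 arrays read -1.0, -2.77, 0.59 and -0.71, with no overlap with the controls. CXCL11 rose by 3.54 (SE 0.66, interval 2.16 to 4.92, 11.6-fold, adjusted p = 0.00115). After 6.7 Gy the 4 arrays lay between -3.23 and -1.74, all above the controls, and the difference of 1.89 was not called for this probe (adjusted p = 0.0739). The dimmer CXCL11 probe was called at both doses on day 4, with fitted changes of 5.07 after 7.4 Gy (adjusted p = 0.000368) and 3.25 after 6.7 Gy (adjusted p = 0.0171). It was well above background on 1 of the 4 control arrays, which limits what these sizes say.

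CXCL9 was spread more widely. Its control arrays read -4.91, -0.65, -1.81 and -2.71, and the 7.4-Gy day 4 arrays read 0.036, -2.72, 2.12 and 1.83. The groups overlapped, since the array of 7.4-Gy animal 2 lay below 3 of the 4 controls, and the difference of 2.84 (SE 1.12, interval 0.51 to 5.17) was not called (adjusted p = 0.0781). Without that array the difference was 3.85 (adjusted p = 0.0179), and without control 2 it was 3.46 (adjusted p = 0.05, just under the threshold before rounding). That animal also had the lowest CXCL10, CXCL11, CXCL16 and CXCL17 signal of its group.

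The signals of CXCL10 and CXCL11 moved together over all 24 arrays (Pearson r = 0.94), while CXCL9 followed CXCL10 at 0.79 and CXCL11 at 0.80. These correlations describe arrays that share their groups, and carry no test. In the RefSeq annotation of the macaque assembly T2T-MMU8v2.0, which is not the build of the array, the genes for CXCL9, CXCL10 and CXCL11 are neighbours on chromosome 5 with 0 protein-coding genes between CXCL9 and CXCL10 and between CXCL10 and CXCL11. The genes most like them in pattern among 11495 ranked were, for CXCL10, CXCL11 (0.94), GBP1 (0.91) and IDO1 (0.89), for CXCL11, CXCL10 (0.94), IDO1 (0.91) and GBP1 (0.91), and for CXCL9, PLAAT4 (0.92), GBP1 (0.92) and FAM26F (0.88). GBP1 is an interferon-induced GTPase and IDO1 an interferon-induced enzyme of tryptophan breakdown.

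**Figure D2:**
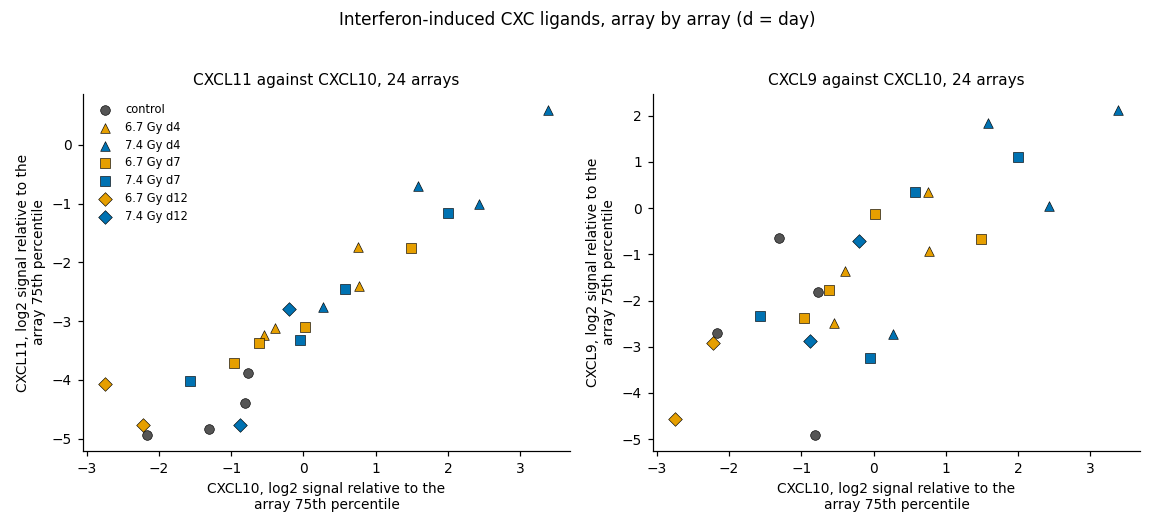
CXCL11 (left, y axis) and CXCL9 (right, y axis) plotted against CXCL10 (x axis), each point 1 of 24 arrays, all as log2 signal relative to the array 75th percentile. Colours and shapes give dose and day. CXCL11 follows CXCL10 closely (r = 0.94) and CXCL9 less closely (r = 0.79), and the 3 highest CXCL11 signals are arrays of day 4 after 7.4 Gy.

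Of the other interferon-induced genes listed, 9 of 10 were measured. On day 4 after 7.4 Gy, GBP1 rose by 2.18 (adjusted p = 0.00965), IDO1 rose by 2.62 (adjusted p = 0.0215) and IFIT3 rose by 1.36 (adjusted p = 0.027), while the antiviral gene RSAD2 fell by 2.29 (adjusted p = 0.00389). The median change of the 9 genes was 1.02. The other 5 were not called: GBP2 differed by 1.2, IFIT1 by 1.02, MX1 by 0.95, ISG15 by 0.52 and OAS1 by -1.62 (adjusted p = 0.286). None of the 9 was called after 6.7 Gy on day 4. IFNG, the gene of the cytokine interferon gamma, was not called in any group against control. It differed by 1.79 on day 4 after 7.4 Gy (adjusted p = 0.16) and was well above background on 2 of 4 control arrays.

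The mucosal ligand CXCL16 was called at both doses. Its control arrays read -3.17, -3.02, -2.19 and -3.01. The 6.7-Gy day 4 arrays read -1.05, -0.74, -0.79 and -1.90, and the 7.4-Gy day 4 arrays read -0.50, -1.51, -0.65 and -0.025. All 8 irradiated arrays were above all 4 controls. CXCL16 rose by 1.73 after 6.7 Gy (SE 0.41, interval 0.87 to 2.58, 3.31-fold, adjusted p = 0.0131) and by 2.17 after 7.4 Gy (SE 0.41, interval 1.32 to 3.03, 4.51-fold, adjusted p = 0.00124). It has a single probe, which carried only a locus number in the array design and was named through its gene ID. The genes most like it in pattern were PANX1 (r = 0.91), KRT80 (0.89) and ZMYND15 (0.88).

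CXCL14, a ligand made by many epithelia, was called at both doses by its brightest probe. The control arrays read 3.53, 3.37, 2.35 and 3.61, the 7.4-Gy day 4 arrays 3.87, 4.18, 4.25 and 4.95, and 3 arrays of the 6.7-Gy day 4 group 4.52, 4.79 and 4.45. Every value of both irradiated groups was above every control. CXCL14 rose by 1.1 after 7.4 Gy (SE 0.29, 2.14-fold, adjusted p = 0.0142) and by 1.37 after 6.7 Gy (SE 0.32, n = 3 irradiated arrays in limma, 2.59-fold, adjusted p = 0.0124). The spot of 6.7-Gy animal 2 was marked as an outlier by the scanner software for both CXCL14 probes and was left out. Kept, it reads 2.45, inside the control range, and the 6.7-Gy change becomes 0.84 (adjusted p = 0.207) and the 7.4-Gy call is lost as well (adjusted p = 0.066). The dimmer probe was not called at either dose (1.08 with adjusted p = 0.0851, and 0.77 with adjusted p = 0.146), and on it the spot of control 1 was left out as an outlier too. If kept, the spot of 6.7-Gy animal 2 on the dimmer probe reads 2.11, below the measured controls of that probe (2.22 to 2.92). The animal was thus low on both CXCL14 probes. Leaving out control 3 ended the 7.4-Gy call of the brightest probe by size (0.81, adjusted p = 0.0492), and leaving out 7.4-Gy animal 4 ended it by size and p (0.88, adjusted p = 0.052).

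CXCL17, a chemoattractant of mucosal tissues, was not well above background on any of the 4 control arrays. The 7.4-Gy day 4 arrays read 0.50, -6.37, 0.17 and -3.55, and the 6.7-Gy day 4 arrays -4.69, -5.41, -3.90 and -0.72. All 8 were well above background, and they spread from -6.37 to 0.50. A bound was set against the higher of the dimmest detected signal and the probe's own value on each control array. By it, CXCL17 was at least 10.1-fold higher after 7.4 Gy and at least 3.91-fold higher after 6.7 Gy. The bounds themselves were not tested. The limma fit used the control values as they stood, none well above background. It gave a call after 7.4 Gy (adjusted p = 0.0185) and none after 6.7 Gy (adjusted p = 0.109). Without 7.4-Gy animal 1 or animal 3 the 7.4-Gy call is lost (adjusted p = 0.0741 and 0.0659). Its nearest genes in pattern were SAA1 (r = 0.93), DUOXA2 (0.91) and SAA4 (0.91), of which SAA1 encodes an acute-phase protein and DUOXA2 a maturation factor of a mucosal oxidase. These correlations ran over 24 arrays, and CXCL17 was well above background on 16 of them.

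The calls of day 4 after 7.4 Gy were read within slides and with array position in the model, because controls and this group share slides 3 and 4 but no position. On those slides CXCL10 was higher than the control of the same slide by 3.19 and 2.43, CXCL11 by 2.89 and 2.17, CXCL16 by 1.69 and 1.50, and CXCL14 by 1.52 and 0.57. As none of these groups overlapped the controls, the sign of these differences was fixed and only their size is given. CXCL17 was not well above background on either control array and has no such value. Of the genes not called, CXCL9 differed by 1.85 and -0.0086 and CXCL13 by 0.93 and -1.15. The position term for this comparison came only from the 6.7-Gy day 4 group, which lay at positions 1 and 2. Its arrays at position 1 and at position 2 also lay on different slides and scan days. The block therefore cannot separate position from slide, scan day and animal. With position as a block, 1 of the 5 calls remained, that of CXCL16 (2.62, adjusted p = 0.0159). CXCL10 then differed by 3.11 (adjusted p = 0.0849), CXCL11 by 3.15 (adjusted p = 0.0729) and CXCL14 by 0.99 (adjusted p = 0.339), and CXCL17 was not called (adjusted p = 0.633). With position and scan day blocks, chosen after seeing the data, CXCL16 was not called either (2.51, adjusted p = 0.139). After 6.7 Gy, CXCL16 was higher than the control of its slide by 2.38 and 1.13 and CXCL14 by 1.26 and 1.08. With slide as a block neither was called (CXCL16 1.35 with adjusted p = 0.0794, CXCL14 1.07 with adjusted p = 0.0675).

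Signals of some cell type markers differed from control on day 4 too, which in whole tissue does not show a change in cell numbers. Of the 6 measured epithelial markers, 3 fell at both doses (CDX2, VIL1 and KRT20), and the summed signal of all 6, in multiples of the 75th percentile, was 177 to 201 in controls, 77.3 to 120 after 6.7 Gy and 57.0 to 103 after 7.4 Gy. Of the 3 measured neutrophil markers, S100A8 and S100A9 rose after 7.4 Gy, with sums of 0.589 to 0.704 in controls and 0.94 to 10.3 after 7.4 Gy. CSF3R, the receptor for the granulocyte growth factor, differed by -0.42 (adjusted p = 0.0424), under 2-fold and not called. Fibroblast markers COL1A2, COL3A1 and PDGFRB rose after 7.4 Gy, 3 of 7, with sums of 106 to 253 in controls and 239 to 341. Of 5 macrophage and monocyte markers MRC1 rose after 7.4 Gy, and of 6 endothelial markers VWF rose after 7.4 Gy. The 8 T cell markers summed to 21.6 to 23.2 in controls, 17.5 to 20.2 after 6.7 Gy and 16.2 to 19.7 after 7.4 Gy with 0 called, and CD5 was not above background on any day 4 array. Of 4 measured red blood cell genes, HBB, a beta-globin gene, fell by 5.95 at each dose and the heme synthesis gene ALAS2 fell by 2.72 after 6.7 Gy, and the sums were 136 to 265 in controls and 133 to 208 on day 4. The part of these shifts in the chemokine results was not tested.

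The homeostatic ligand CXCL13 had the widest control spread of the 10 genes (SD 1.99, n = 4). Its control arrays read -6.57, -4.87, -3.43 and -1.92, the first of them not above background. The 6.7-Gy day 4 arrays lay between -3.95 and -1.39 and the 7.4-Gy day 4 arrays between -3.08 and -1.58. The differences of 1.56 and 1.80 were not called (adjusted p = 0.2 and 0.0994), and both groups overlapped the controls. Without control 4, the highest of them, the 7.4-Gy difference was 2.56 (adjusted p = 0.0199). All 7.4-Gy day 4 arrays were scanned on scan day 2, and against the 2 controls of that day they differed by 0.28. The 6.7-Gy day 4 group differed by 3.05 within scan day 1 and by 0.072 within scan day 2.

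Control 4 also stood apart in B cell genes. The summed signal of the 7 measured B lymphocyte markers was 0.876, 1.76, 2.37 and 6.80 on control arrays 1 to 4, and 0.878 to 2.99 on the 20 irradiated arrays. CXCR5, the CXCL13 receptor of B cells, showed the same ends in both of its probes: control 1 was lowest (-2.21 and -4.68) and control 4 highest (-1.08 and -0.33). MS4A1, which encodes CD20, was not above background on any array of 5 of the 6 irradiated groups, the exception being day 12 after 6.7 Gy. No B lymphocyte marker was called in any group against control. The part of B cell content in the CXCL13 and CXCR5 values was not tested.

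The genes nearest to CXCL13 in pattern were ERP27 (r = 0.83), CCL19 (0.83), a ligand that draws lymphocytes and dendritic cells to T cell zones, and LST1 (0.81). Lymphotoxin signalling is the known inducer of CXCL13 in lymphoid stroma. Of its 6 listed genes, all measured, RELB rose on day 4 after 6.7 Gy by 1.27 (adjusted p = 0.012), the other 5 were not called at that dose, and 0 of 6 were called after 7.4 Gy. LTB, a lymphotoxin subunit, differed from control by 0.74 and 0.24 on day 4 and was not called.

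CXCL12 was detected on every array by all 3 of its probes, and the probes disagreed. The brightest read 2.36, 2.11, 1.94 and 1.53 in controls and 1.75, 2.51, 2.60 and 1.63 on day 4 after 7.4 Gy, overlapping groups with a difference of 0.14 (interval -0.46 to 0.73, adjusted p = 0.778). The other 2 probes gave 0.96 each for that comparison (adjusted p = 0.0319 and 0.0336), just short of a 2-fold change and so not called, and both kept every irradiated array above every control. On day 12 after 6.7 Gy all 3 probes lay below all controls, with differences of -0.73, -1.28 and -1.05 that were not called (adjusted p = 0.763, 0.452 and 0.595). The genes most like the brightest probe were CERCAM (r = 0.80), SFRP4 (0.79) and ISLR (0.79).

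Neither receptor was called in any comparison. CXCR4, the receptor of CXCL12 on most leukocytes, read -2.64, -1.96, -2.22 and -1.36 in controls, -1.41, -2.10, -1.20 and -2.01 on day 4 after 6.7 Gy and -0.92, -2.0, -1.72 and -2.35 after 7.4 Gy. The groups overlapped, and the differences of 0.37 (interval -0.26 to 0.99, adjusted p = 0.473) and 0.30 (interval -0.33 to 0.93, adjusted p = 0.519) were not called. Its nearest genes in pattern were FDCSP (r = 0.82), PTAFR (0.75) and INPP4A (0.74). CXCR5 differed by -0.30 and -0.51 on day 4 (adjusted p = 0.494 and 0.176). Its second probe differed by -0.43 and -0.35 on day 4 but by -1.20 and -1.56 on day 7, where the brightest probe read 0.02 and -0.03, and neither was called. The brightest CXCR5 probe was most like RD3 (r = 0.89), KCNK9 (0.89) and CHRNA2 (0.86).

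**Figure D3:**
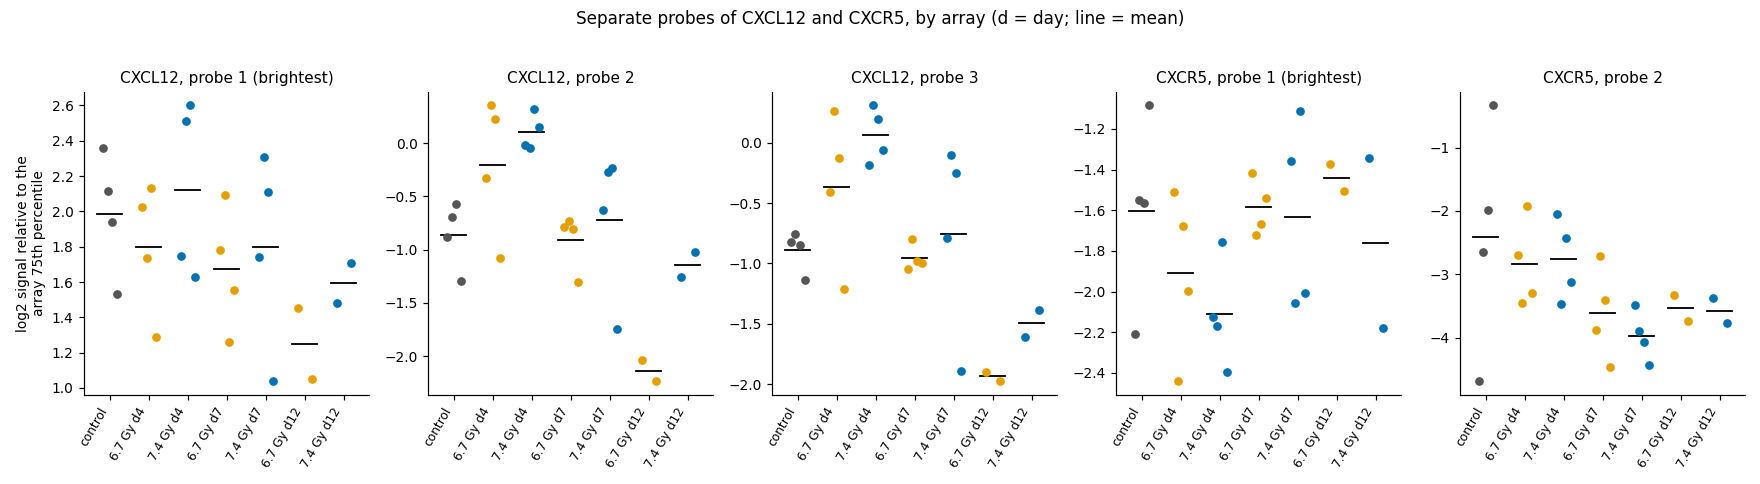
Log2 signal relative to the array 75th percentile (y axis, a separate scale per panel) of the 3 CXCL12 probes and the 2 CXCR5 probes in every array, by group (x axis, d = day; grey, control; orange, 6.7 Gy; blue, 7.4 Gy), with group means as lines. The 2 dimmer CXCL12 probes place all 7.4-Gy day 4 arrays above the controls and the brightest does not, and the second CXCR5 probe spreads the controls from -4.68 to -0.33.

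Of the 6 other receptors and scavengers listed, all were measured. CXCR6, the CXCL16 receptor of T and NK cells, was called lower in 2 of the 6 irradiated groups. Its mean was -1.06 ± 0.39 (SD, n = 4) in controls, -2.08 ± 0.30 (n = 4) on day 4 after 7.4 Gy and -2.68 ± 0.38 (n = 4) on day 7 after 6.7 Gy. It fell by 1.02 in the first comparison (adjusted p = 0.0386) and by 1.62 in the second (adjusted p = 0.0442), and differed by -0.95 and -1.33 in the other day 4 and day 7 groups without a call. On day 12 it differed by -0.64 after 6.7 Gy and -0.47 after 7.4 Gy (adjusted p = 0.871 and 0.89). CXCR3, the receptor of CXCL9, CXCL10 and CXCL11, was below its control mean in all 6 irradiated groups and called in none, with differences between -1.66 and -0.27. The scavengers ACKR1 and ACKR3 read 0.89 and 0.83 above control on day 4 after 7.4 Gy, under 2-fold and not called. ACKR4, which binds homeostatic chemokines, lay between -0.68 and 0.04, and GPR35, once proposed as a CXCL17 receptor, between -0.43 and -0.10. ADAM10, a protease that sheds CXCL16, and DPP4, a peptidase that trims CXCL10, were not called in any group.

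**Figure D4:**
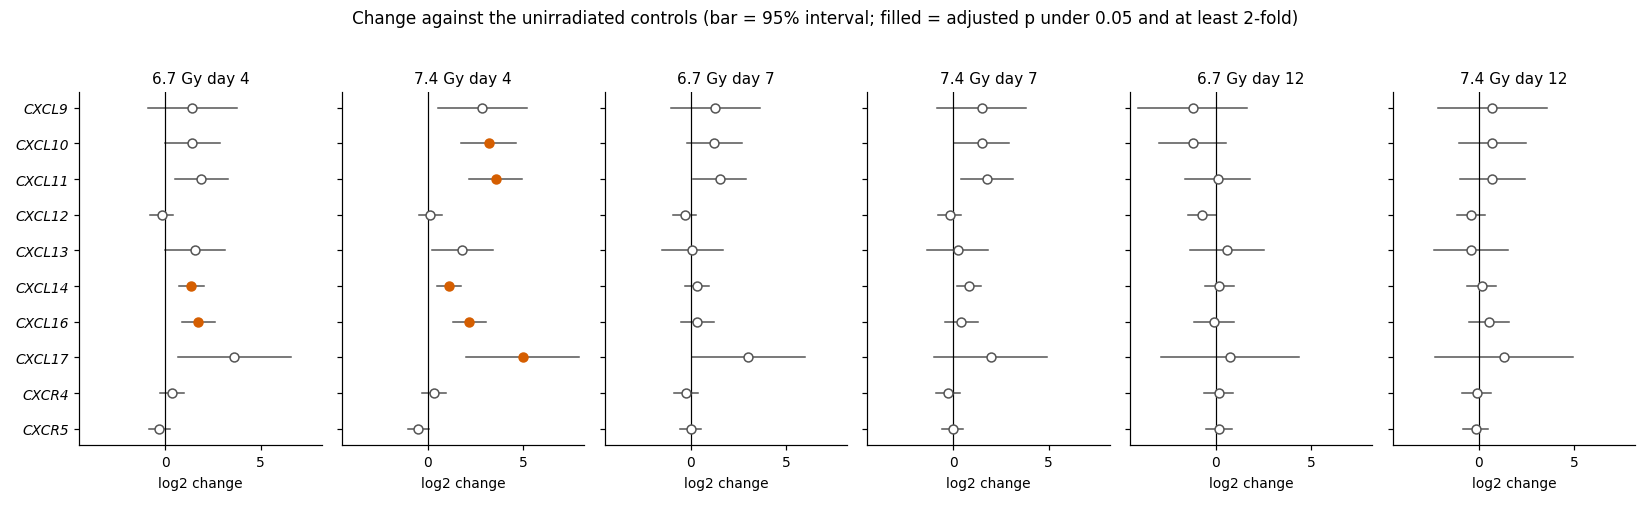
Log2 change against the 4 controls (x axis) for each gene (y axis) in the 6 irradiated groups, with 95% intervals as bars. Filled points passed both thresholds (adjusted p 0.05 and 2-fold): 2 genes on day 4 after 6.7 Gy, 5 on day 4 after 7.4 Gy and 0 in the day 7 and day 12 groups.

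By day 7 none of the 10 genes was called against control at either dose. The background was 0.386% of named genes called after 6.7 Gy and 0.461% after 7.4 Gy. At an unadjusted p under 0.05, 2 of the 10 passed after 6.7 Gy, against 10.4% of named genes, and 3 after 7.4 Gy, against 12.6%. CXCL10 read -0.96, 0.022, 1.48 and -0.62 after 6.7 Gy and 2.0, 0.58, -0.049 and -1.57 after 7.4 Gy. At each dose 3 of the 4 arrays were above all controls and 1 was within their range. CXCL11 differed by 1.52 (interval 0.14 to 2.90, adjusted p = 0.462) and 1.77 (interval 0.39 to 3.15, adjusted p = 0.291). CXCL17 was above background on all 4 arrays after 6.7 Gy and read -5.25, -0.87, -4.72 and -6.26. As an untested bound, it was at least 2.58-fold higher than the controls. The limma fit, on the control values as they stood, gave no call (adjusted p = 0.506).

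CXCL14 after 7.4 Gy read 4.59, 3.87, 3.92 and 3.83, all above the controls, with a difference of 0.84 (adjusted p = 0.261). CXCL16 read -2.33, -2.30, -2.83 and -2.52 after 6.7 Gy and -1.30, -2.22, -3.43 and -2.77 after 7.4 Gy, overlapping the controls, with differences of 0.35 (interval -0.51 to 1.21) and 0.42 (interval -0.44 to 1.27). The intervals still allow a 2-fold difference, so that equality with the controls was not shown. The summed epithelial marker signal on day 7 was 173 to 222, against 177 to 201 in controls. The 8 T cell markers summed to 9.39 to 16.4, below every control, and CD28 and CD5 were above background on no day 7 array.

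Day 12 rested on 2 animals a dose. None of the 10 genes was called against control at either dose, against 0.0136% of named genes after 6.7 Gy and 0.0203% after 7.4 Gy, and 1 and 0 genes passed an unadjusted p under 0.05, against 6.86% and 7.09% of named genes. CXCL10 read -2.22 and -2.75 after 6.7 Gy, below all controls, and -0.20 and -0.88 after 7.4 Gy, in part above them. CXCL16 read -3.67 and -2.27 after 6.7 Gy and -2.03 and -2.56 after 7.4 Gy. The intervals against control were wide, -2.99 to 0.55 for CXCL10 and -1.17 to 0.93 for CXCL16 after 6.7 Gy.

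The comparison of the doses asked whether 7.4 Gy differed from 6.7 Gy on the same day. None of the 10 genes was called on day 4, day 7 or day 12, where 0% of all named genes were called on each day. At an unadjusted p under 0.05, 2 of the 10 passed on day 4, against 7.31% of named genes, and 0 on day 7 and day 12, against 1.83% and 3.16%. The 2 were CXCL10, 1.77 higher after 7.4 Gy (interval 0.32 to 3.21, adjusted p = 0.7), and CXCL11, 1.65 higher (interval 0.27 to 3.03, adjusted p = 0.714). CXCL16 differed by 0.45 (interval -0.41 to 1.30) and CXCL14 by -0.27 (interval -0.94 to 0.39). The 5 calls after 7.4 Gy and 2 after 6.7 Gy are therefore no called difference between the doses.

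The comparison of days pooled both doses with equal weight, so that 8 arrays stood for day 4, 8 for day 7 and 4 for day 12. From day 4 to day 7, 2 of the 10 genes fell, CXCL16 and CXCL13, against 2.26% of named genes called lower and 4.84% called in either direction. From day 4 to day 12, 4 of the 10 fell, CXCL10, CXCL11, CXCL14 and CXCL16, against 3.59% called lower and 7.33% called in either direction. Between day 7 and day 12 none was called, against 0.122% of named genes, and 2 passed an unadjusted p under 0.05, against 10% of named genes. The median change of the 10 genes was -0.83 from day 4 to day 7 and -1.67 from day 4 to day 12, against 0.025 and 0.035 over all named genes. The days lay at different positions on the slides, and day and position cannot be told apart between day 4 and the later days.

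CXCL16 was called lower on both later days. It fell by 1.57 to day 7 (SE 0.29, 2.96-fold, adjusted p = 0.000747), with all 8 day 7 arrays below the day 4 mean, and by 1.73 to day 12 (SE 0.36, 3.33-fold, adjusted p = 0.00179), with all 4 day 12 arrays below all 8 of day 4. Between day 7 and day 12 it differed by -0.17 (interval -0.91 to 0.57). Both calls held under all 18 alternatives of processing that could be run and without any 1 array.

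CXCL10 and CXCL11 were called lower on day 12. CXCL10 differed by -0.92 on day 7 (interval -1.94 to 0.10, adjusted p = 0.175) and fell by 2.54 on day 12 (SE 0.60, 5.83-fold, adjusted p = 0.00487). CXCL11 differed by -1.07 on day 7 (interval -2.05 to -0.10, adjusted p = 0.0972) and fell by 2.31 on day 12 (SE 0.57, 4.94-fold, adjusted p = 0.00683), where 3 of 4 arrays were above background. All 4 day 12 arrays were below the day 4 mean for both genes, and each gene still overlapped the day 4 range. Without 7.4-Gy day 12 animal 2 the CXCL11 change was -1.81 (adjusted p = 0.0583). Without 7.4-Gy day 4 animal 2 or 7.4-Gy day 7 animal 1, CXCL11 was also called on day 7 (-1.37 with adjusted p = 0.0261, and -1.33 with adjusted p = 0.0362). CXCL9 differed by -2.38 on day 12 without a call (adjusted p = 0.0804), and was called without 7.4-Gy day 4 animal 2 (-2.88, adjusted p = 0.0235). GBP1 and IDO1 fell over the same interval, by 1.59 and 2.28, while RSAD2 rose by 1.66.

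**Figure D5:**
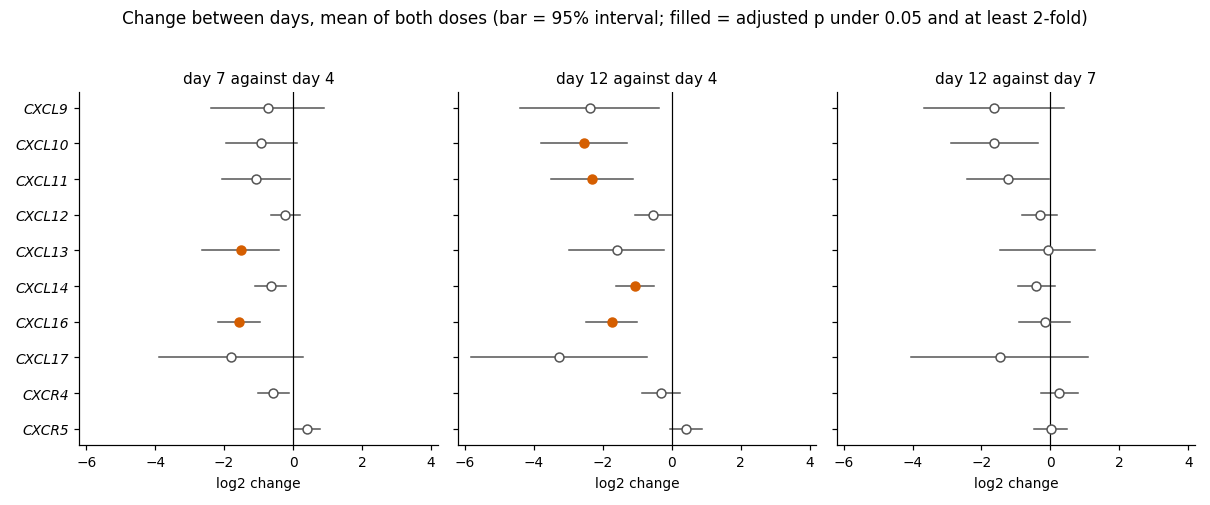
Log2 change between days (x axis), mean of both doses, for each gene (y axis), with 95% intervals as bars. Filled points were called: CXCL13 and CXCL16 from day 4 to day 7, CXCL10, CXCL11, CXCL14 and CXCL16 from day 4 to day 12, and none from day 7 to day 12.

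CXCL14 fell by 1.06 from day 4 to day 12 (SE 0.26, 2.09-fold, adjusted p = 0.00715), with no overlap between the 4 day 12 arrays and the 7 measured day 4 arrays. To day 7 it differed by -0.65 (adjusted p = 0.0335), under 2-fold and so not called. With the outlier spot of 6.7-Gy day 4 animal 2 kept, the day 12 change was -0.79 (adjusted p = 0.113). That spot, at 2.45, lies below all 4 day 12 arrays. The call was lost under 6 of 18 alternatives, among them quantile normalization (-0.997), the slide block (-0.95) and the mean over both probes (-0.96). The second probe had means of 3.68 after 6.7 Gy and 3.37 after 7.4 Gy on day 4. On day 12 they were 2.66 and 2.69. Leaving out 7.4-Gy day 4 animal 4 or 6.7-Gy day 12 animal 2 took the change under 2-fold (-0.95 and -0.90). CXCL13 fell by 1.52 from day 4 to day 7 (SE 0.54, 2.86-fold, adjusted p = 0.043), with all 8 day 7 arrays below the day 4 mean. That call was lost when any of 12 of the 16 arrays was left out, with adjusted p up to 0.0901. Its second probe was called on both days, -1.94 on day 7 (adjusted p = 0.0245) and -2.33 on day 12 (adjusted p = 0.0286, 2 of 4 arrays above background).

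CXCL17 differed by -1.80 on day 7 and -3.27 on day 12 (adjusted p = 0.196 and 0.0591), and was called on day 12 without 7.4-Gy day 4 animal 2 (-3.94, adjusted p = 0.0142). CXCL12 differed by -0.53 on day 12 by its brightest probe (adjusted p = 0.122), while its other 2 probes fell by 1.59 and 1.56 (adjusted p = 0.000377 and 0.000425) and were called. CXCR4 differed by -0.57 on day 7, lower than the day 4 mean on all 8 arrays (adjusted p = 0.0524). Read from the brightest probes, CXCR5 was the 1 gene of the 10 with a positive difference in both comparisons, 0.40 and 0.41, neither called. The second CXCR5 probe went the other way. After 6.7 Gy its group mean was -2.84 for day 4, -3.61 for day 7 and -3.53 for day 12. After 7.4 Gy the same means read -2.76, -3.97 and -3.58.

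Other genes of the network also fell between the days. ACKR1, the scavenger of venular endothelium, fell by 1.30 to day 7 (adjusted p = 0.000106) and by 1.37 to day 12 (adjusted p = 0.000413), and LTB fell by 1.64 (adjusted p = 0.00116) and 1.67 (adjusted p = 0.00496). The epithelial markers CDX2, VIL1 and KRT20 rose in both comparisons, 3 of 6, with summed signals of 57.0 to 120 on day 4, 173 to 222 on day 7 and 183 to 241 on 3 of the 4 day 12 arrays. Neutrophil markers S100A8 and S100A9 fell from day 4 to day 12. HBB fell by 1.52 to day 7 and rose by 1.83 from day 4 to day 12. Their part in the chemokine changes was not tested.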

How the data were processed

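RNA of 24 colon samples was hybridised to 1-colour Agilent rhesus arrays. The deposited scanner files hold spot intensity values from Feature Extraction 11.0.1.1 (Agilent design on rheMac2), among them a processed signal. In the methods the authors took log2 signals relative to the 75th percentile of each array in GeneSpring, and a deposited log2 table of theirs served as an alternative. Columns of per-spot flags gave the calls above background.

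Log2 of the processed signal minus the log2 of the array 75th percentile was used here, which fixes the bulk of each array and hides a shift shared by most probes. Control spots and spots marked as outliers were left out, and 0 spots were saturated. Probes well above background on at least 2 of 24 arrays were kept, 38220 of 43603. All arrays entered a single fit of group means in limma 3.58.1 in R 4.3.3, p-values were adjusted by Benjamini-Hochberg over all probes tested, and a call needed an adjusted p under 0.05 and 2-fold. The brightest probe stood for each of 14758 genes, and other probes are reported beside it. Fits were tested on simulated data. The number of arrays limits the precision, and day 12 had 2 arrays a dose.

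Symbols came from the array files, and 3184 probes with only a locus number, that of CXCL16 among them, were named through RefSeq gene IDs. The members and the pathway and marker lists were chosen with earlier results of these data known. Named genes outside the 10 came from those lists or were the 3 genes with the highest correlation with a member. Leaving out each array, other scalings, filters, tests and blocks were tried. Sequences were not used here, and the listed genes of interferon gamma signalling other than IFNG are not reported here.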

Additional observations from a re-analysis of the deposited data

Results flagged for a closer look

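Among 49 groups of 4 arrays, 2 held an array far from the other 3 by Dixon's test (critical ratio 0.829), and chance gives about 1 such group in 20. CXCL14 in animal 1 of day 7 after 7.4 Gy read 4.59, the other 3 arrays of that group read 3.83 to 3.92, and the ratio of the gap to the range was 0.871. CXCL16 in control 3 read -2.19, the other controls read -3.17 to -3.01, and the ratio was 0.839.

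Changes from the shared controls differed between days for 5 genes, by the limma contrast of the days themselves. Day and array position cannot be told apart in these comparisons. From day 4 to day 7 the difference was -1.518 for CXCL13 (adjusted p = 0.043) and -1.567 for CXCL16 (adjusted p = 0.000747). CXCL13 was not called against control on either day, and its call between days was lost without any of 12 of the 16 arrays. From day 4 to day 12 it was -2.544 for CXCL10 (adjusted p = 0.00487), -2.306 for CXCL11 (adjusted p = 0.00683), -1.06 for CXCL14 (adjusted p = 0.00715) and -1.735 for CXCL16 (adjusted p = 0.00179).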

How the results depend on the processing

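Of 3320 values of the 10 genes under 20 alternatives and 24 fits without 1 array, 3084 kept direction and call, 54 lost a call, 29 gained one, and 153 changed sign without a call. No called value changed sign. On day 4 after 6.7 Gy, 2 genes were called, against 1 with the authors' table, with outlier spots kept, with the position block and with position and scan day blocks (chosen after seeing the data), 0 with the slide block and by the methods' t-test adjusted, and 5 by it unadjusted. Over all 38220 probes, 1390 were called here, 1388 with the authors' table and 1391 with outlier spots kept. The numbers were 1571 with the position block, 1278 with position and scan day blocks and 908 with the slide block. The methods' t-test called 492 probes adjusted and 1724 unadjusted, of 38219. After 7.4 Gy, 5 genes were called, against 3 by the adjusted methods' t-test, 1 with the position block and 0 with position and scan day blocks. In the same order, 2692, 1655, 3021 and 582 of all 38220 probes were called. The unadjusted methods' t-test called 2 genes on day 7 after 6.7 Gy, 1 on day 7 after 7.4 Gy and 1 between doses on day 12. Over all probes it called 705 and 679 of 38220 on day 7 and 180 of 38168 between doses on day 12. From day 4 to day 7, 2 genes were called, against 1 with normexp, without the filter, with the slide block and with the scan day block. Over all probes, 1698 of 38220 were called here, 750 with normexp and 1650 of 43603 without the filter. The slide block gave 1556 and the scan day block 1566 of 38220. The cause was not tested. Without 1 array the counts ranged from 2 to 2 on day 4 after 6.7 Gy, 4 to 6 after 7.4 Gy, 1 to 3 from day 4 to day 7, 3 to 6 from day 4 to day 12, and 0 to 0 elsewhere.

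With the replicate block the counts were 2 and 5 on day 4, 2 from day 4 to day 7, 4 from day 4 to day 12 and 0 elsewhere, as without it. Same-numbered arrays correlated at -0.12 to 0.15 over 36527 probes, so the numbers were not taken as a pairing. With spike-in scaling the median change of all probes against control on day 4 was 0.15 after 6.7 Gy and 0.21 after 7.4 Gy, in place of -0.075 at each dose. Position blocks were not run where position and group cannot be told apart, which are the comparisons of day 7 and day 12 with control and with day 4. Dim probes limit CXCL11 and CXCL17 in controls.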
